A study of Mus musculus with 4 samples.

Results

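The genes described here are those whose symbols match the pattern of cytosolic ribosomal protein genes, that is Rpl or Rps followed by a digit, together with Rplp0, Rplp1, Rplp2 and Rpsa, without symbols containing -ps. Of 32285 genes in the expression matrices, 96 were members. By their textbook roles, 77 of these encode core proteins of the ribosome, of which 43 belong to the large (60S) subunit body, 3 to its stalk and 31 to the small (40S) subunit. A further 8 are paralogs or variant copies of a core gene, such as Rps27l and Rpl22l1, and 11 encode no ribosomal protein, mostly kinases named for ribosomal protein S6. Fau, which encodes Rps30 fused to a ubiquitin-like protein, does not match the pattern and was kept apart.

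The ribosome translates every cytosolic protein of a cell, and its proteins are made in near equal amounts from some of the most abundant mRNAs. Many of these mRNAs begin with a tract of pyrimidines, through which their translation follows growth signals such as mTOR activity, so that mRNA level and protein output need not move together. In single-cell data naive T cells are known for a high share of ribosomal protein transcripts.

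The study transferred 5000000 CD4 T cells, purified on columns from spleens of B6.H2g7 mice (labelled strain B6.NOD-(D17Mit21-D17Mit10)/LtJ, age 6 to 8 weeks), into 2 NOD.Rag1null hosts, a strain with no lymphocytes of the T or B lineage. Live CD4+ T cell receptor β+ cells were sorted from the spleen of each host on day 14, and each sort gave 1 library for 5′ expression and 1 for receptor chains. Its title concerns the deletion of Vβ3+ cells, whose β chain uses TRBV26, by an endogenous mouse mammary tumor virus. All groups below are classes of cells from the same 2 hosts, called mouse 1 and mouse 2, which were treated alike, and the labels do not say whether donor cells were pooled.

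Cells were classed by the V gene of their β chain contig as TRBV26 (2084 and 1960 cells in mouse 1 and mouse 2), TRBV23 (959 and 725 cells) or other V genes (2950 and 3647 cells). TRBV23 is a second single V gene set beside TRBV26. They were also classed by the number of kept cells of their clonotype and by the presence of a Foxp3 UMI, Foxp3 being the transcription factor of regulatory T cells. A cell with no Foxp3 UMI may still express the gene. UMIs (unique molecular identifiers, 1 per captured transcript) were summed per mouse and class. A gene is called changed at a Benjamini-Hochberg adjusted p under 0.05 over all tested genes in edgeR's quasi-likelihood test with the mouse as a block. Its level is given in CPM, the class sum scaled to a common total. In such sums a change in the mix of cells and a change of RNA per cell cannot be told apart.

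Promoter sequences were used to show how near-identical copies and the pyrimidine tract appear at the starts of these genes. RefSeq windows (GRCm38.p6) were at hand for 57 of the 77 core genes. CTTTCC, a pyrimidine string of the kind found at the start of such mRNAs, stood on the gene strand within the 30 bases around the annotated start in 9 of the 57 (15.8%), against 412 of 27025 genes in the table (1.52%). On both strands the shares were 15.8% and 3.03%. CCGGAAG, the core of sites bound by ETS family factors, stood on either strand of the 300-base window in 42.1% of the core genes and 9.93% of all. A match is a description of these letters and says nothing of binding. In the 30-base windows below, written 5′ to 3′ on the gene strand, capitals mark CTTTCC.
Rps27, chr3:90213629-90213658, minus strand: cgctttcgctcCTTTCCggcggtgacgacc
Rps27rt, chr9:114982720-114982749, minus strand: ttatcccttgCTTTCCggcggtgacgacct
Rps10, chr17:27635225-27635254, minus strand: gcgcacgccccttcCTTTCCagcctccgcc
Rpl35, chr2:39005112-39005141, minus strand: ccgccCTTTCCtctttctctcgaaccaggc
Rpl28, chr7:4792955-4792984, plus strand: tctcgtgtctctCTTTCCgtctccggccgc

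The windows of Rps27 and Rps27rt share their right end because Rps27rt, a 1-exon gene at chromosome 9, 114982366 to 114982739 on the minus strand, carries a copy of the Rps27 transcript. The 2 transcripts were identical over 341 of 341 aligned bases, so reads of one can be lost to or counted for the other, and values of Rps27 and Rps27rt are uncertain to that extent. Rps27 itself lies at chromosome 3, 90212522 to 90213651, minus strand, with 5 exons (GRCm38, GENCODE M21). The other pairs differed more. Rps27 and Rps27l, on chromosome 9 at 66946086 to 66949516, were 79.0% identical where they aligned, Rpl36a and Rpl36al 87.8%, and Rpl22 and Rpl22l1 74.6%.

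Kept cells numbered 5993 and 6332, with 38725969 and 44796902 UMIs and a median of 5596 and 6219.5 UMIs per cell. The 2 hosts shared 166 cell barcodes, of which 58 were kept in both. The 96 members together held 17.04% and 17.34% of all UMIs. Within them, 49.1% of the UMIs came from the 60S body genes, 44.7% from the 40S genes, 5.20% from the stalk, 0.812% from paralogs and 0.217% from the non-ribosomal symbols. All 5 T cell markers examined were detected in every class, with summed levels between 4459 and 4765 CPM over the V classes. The B, CD8 T, NK, myeloid, dendritic and platelet lists each summed to at most 25.2 CPM in any V class. Haemoglobin transcripts of the erythroid list reached 261 CPM in TRBV23 cells and 50.1 CPM in TRBV26 cells of mouse 2 and at most 7.05 CPM in the other V class sums.

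Levels of core genes spanned more than an order of magnitude although their products are used in near equal numbers. Each value is a count of 5′ transcript ends and is not divided by length. Rpsa, a 40S protein also known as the laminin receptor precursor, led with 5894 and 5530 CPM over all kept cells. Rpl13 (60S) followed with 4792 and 4603 CPM, and Rps24 (40S), Rpl19 (60S) and Rplp0, the scaffold of the stalk, lay between 4100 and 4516 CPM. At the low end stood Rpl31 with 326 and 343 CPM, Rpl23a with 362 and 355 CPM, and Rps25 and Rpl41 with 446 to 469 CPM. All 77 core genes passed the filter on low counts in every comparison. Of the 8 paralogs 5 passed. Of the 11 non-ribosomal symbols, 10 passed in the V gene comparisons and 9 in the others. The members that failed were rare, for example Rpl39l with 21 and 16 UMIs, Rpl3l with 1 UMI in each mouse and Rpl10l with none.

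V gene of the cell. TRBV26 and TRBV23 cells held a slightly larger part of their UMIs in ribosomal protein transcripts than cells with other V genes. The share was 17.35% and 17.87% in TRBV26 cells and 17.34% and 17.33% in TRBV23 cells, against 16.76% and 17.08% in cells with other V genes. TRBV26 cells exceeded the others by 0.695 ± 0.139 percentage points and TRBV23 cells by 0.416 ± 0.236 points (mean and SD of the differences, n = 2 mice). Counting error alone gave an exact 95% interval (Clopper-Pearson) of 17.33% to 17.37% in TRBV26 cells of mouse 1, against 16.74% to 16.77% in the others. TRBV26 and TRBV23 differed by 0.278 ± 0.375 points, less than the spread between mice.

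Other lists moved with the V class too. Of 22 proliferation genes 20 fell in TRBV26 cells, where the list held 0.246% and 0.173% of UMIs, against 0.329% and 0.248% in the others. The 5 regulatory T cell genes summed to 854 and 1023 CPM in TRBV26 cells, against 1143 and 1092 CPM in the others. They did not move as 1, since 1 of the 5 was called higher and 4 lower. Of all tested genes 8.8% were called higher and 10.6% lower there. Cells with a Foxp3 UMI numbered 177 of 2084 and 254 of 1960 in TRBV26 cells, against 659 of 2950 and 805 of 3647. Median mitochondrial shares per cell were 1.85% and 2.09% in TRBV26 cells and 1.83% and 2.06% in TRBV23 cells, against 1.47% and 1.47% in the others. Cells with under 5% ribosomal protein UMIs made up 5.81% and 3.62% of TRBV26 cells and 3.65% and 3.17% of TRBV23 cells, against 10.3% and 5.73% of the others. The part of these measures in the V class differences was not tested.

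**Figure D1:**
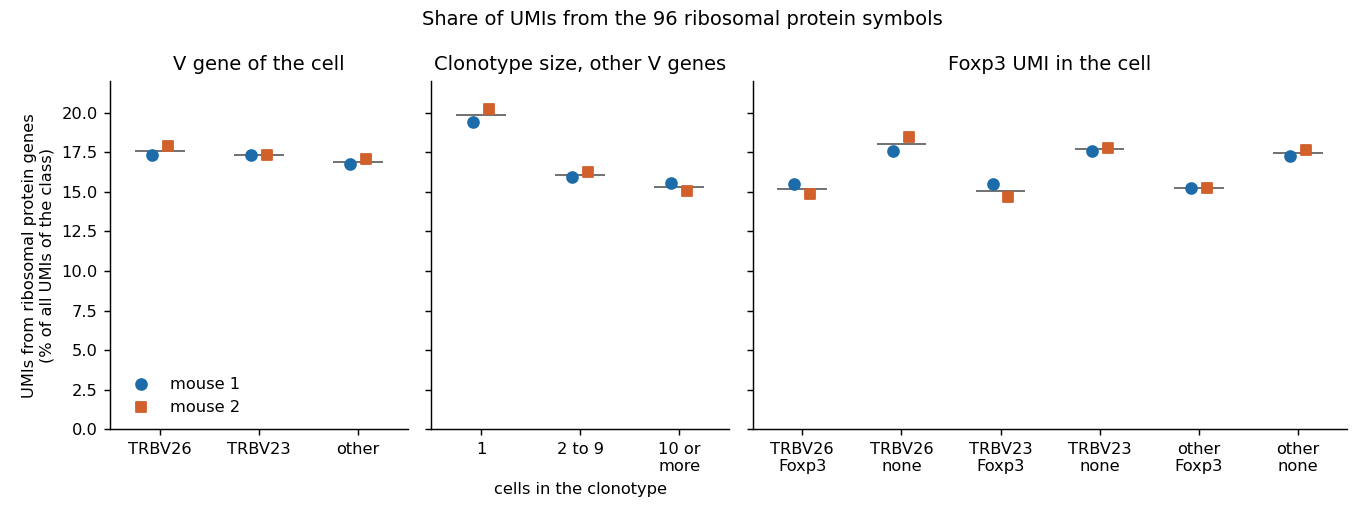
Percent of UMIs from the 96 ribosomal protein symbols (vertical axis, from 0) by V gene, clonotype size among other V genes, and V gene with Foxp3 UMI. Circles are mouse 1, squares mouse 2 and lines the mean of the 2 mice; cells of 1-cell clonotypes stand highest (19.43% and 20.22%) and cells with a Foxp3 UMI lie below those without one in every V class.

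Gene by gene, 17 of the 77 core genes rose and 0 fell in TRBV26 cells against other V genes, where 8.8% of all 12631 tested genes were called higher, 10.6% lower and 19.4% in either direction. The median log2 fold change of the core genes was 0.06, with 0.07 in mouse 1 and 0.06 in mouse 2, beside 0.00 over all tested genes. In TRBV23 cells 10 core genes rose and 0 fell, at a background of 6.39% called higher, 7.05% lower and 13.4% in either direction, and the core median was 0.04. Mouse 1 gave a median of 0.07 and mouse 2 one of 0.01 there. The sign of the median turned when each clonotype counted once. With 1 cell drawn from each clonotype 3 core genes were higher and 13 lower in TRBV26 cells, with a median of -0.048. Of all tested genes 11% were called higher and 13% lower there. Among 1-cell clonotypes, a choice made after the data were seen, 1 was higher and 29 lower, with a median of -0.10. The background among 1-cell clonotypes was 11.8% called higher and 12.7% lower. TRBV26 against TRBV23 gave no call among the core genes, none with an unadjusted p under 0.05 and none with DESeq2, at a background of 0.0475%, with 0.0238% called higher and 0.0238% lower. The 3 comparisons share samples. DESeq2 called 6 and 3 core genes higher in TRBV26 and TRBV23 cells against the others, where it called 3.34% and 3.19% of all tested genes higher, and edgeR without the mouse block called 0 in each.

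The largest increases were in small zinc-binding 40S proteins. Rps29 measured 837 and 1191 CPM in TRBV26 cells and 838 and 1177 CPM in TRBV23 cells, against 702 and 983 CPM in cells with other V genes. Rps27 measured 1591 and 2158 CPM in TRBV26 cells and 1542 and 2126 CPM in TRBV23 cells, against 1325 and 1837 CPM in the others. Both genes stood higher in mouse 2 than in mouse 1 in every V class, by more than the V classes differed, and within each mouse both single V gene classes lay above the others. The log2 fold change of Rps29 was 0.27 ± 0.04 in TRBV26 cells (SE, adjusted p = 0.000262) and 0.27 ± 0.04 in TRBV23 cells (adjusted p = 0.000511). That of Rps27 was 0.25 ± 0.03 (adjusted p = 0.000291) and 0.22 ± 0.03 (adjusted p = 0.0011) by the same edgeR test. Without the mouse block the adjusted p of Rps29 was 0.614 and 0.671 and that of Rps27 0.617 and 0.706.

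Rps28, a small 40S protein, rose by 0.19 ± 0.04 on the log2 scale in TRBV26 cells and by 0.17 ± 0.04 in TRBV23 cells. Among 60S genes, Rpl37a rose by 0.17 and 0.16 and Rpl21 by 0.17 and 0.16 in TRBV26 and TRBV23 cells, again in both mice. The stalk did not move as a unit. Rplp1 rose by 0.16 ± 0.03 in TRBV26 cells (adjusted p = 0.00513, edgeR) and by 0.12 ± 0.03 in TRBV23 cells (adjusted p = 0.0329), while Rplp0 had log2 values of -0.07 and -0.07 and Rplp2 of 0.09 and 0.06, none of them called. Rpsa rose by 0.14 ± 0.03 and 0.15 ± 0.03.

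Among the paralogs, Rpl22l1 rose by 0.22 in both single V gene classes, while its partner Rpl22, which is needed for αβ T cell development in mice, had log2 values of 0.09 and 0.07 and was not called. Rpl22l1 measured 457 and 525 CPM in TRBV26 cells and 476 and 496 CPM in TRBV23 cells, against 404 and 438 CPM in the others. Rps27l, a copy of Rps27 known as a p53 target, went the other way from Rps27. It measured 151 and 129 CPM in TRBV26 cells, against 179 and 149 CPM in the others, a fall by 0.22 ± 0.05 on the log2 scale (adjusted p = 0.00727, edgeR), and in TRBV23 cells its value of -0.15 was not called (adjusted p = 0.0961). Rps27rt rose by 0.26 and 0.29, on 55.5 to 75.1 CPM, with the uncertainty given above. Rpl36al and Rpl7l1 were not called in either class. By DESeq2 neither Rps27rt (adjusted p = 0.199) nor Rps27l (adjusted p = 0.0952) was called in TRBV26 cells.

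Of the symbols that encode no ribosomal protein, Rps6ka1, the kinase RSK1 downstream of ERK, fell by 0.31 ± 0.05 in TRBV26 cells and by 0.33 ± 0.05 in TRBV23 cells. Its levels were 120 and 135 CPM in TRBV26 cells and 119 and 131 CPM in TRBV23 cells, against 154 and 163 CPM in the others. Rps6ka5, the chromatin kinase MSK1, fell by 0.33 and 0.48 on levels of 13.0 to 20.9 CPM, a call that DESeq2 did not make in TRBV26 cells (adjusted p = 0.528). Rps6kb1, the S6 kinase activated by mTOR, and Rps19bp1, a binding partner of Rps19, were not called.

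Clonotype size. Among cells with other V genes the ribosomal protein share was highest in cells whose clonotype was seen once. It was 19.43% and 20.22% in 1-cell clonotypes, 15.92% and 16.24% in clonotypes of 2 to 9 cells, and 15.58% and 15.07% in clonotypes of 10 or more cells. Clonotypes of 2 to 9 cells lay 3.74 ± 0.334 points and those of 10 or more cells 4.50 ± 0.925 points below single cells (SD, n = 2 mice). Most of the step was between 1 and 2 cells, since clonotypes of exactly 2 cells already had 16.3% and 16.6%. Of the clonotypes with 10 or more cells, 41 of 42 in mouse 1 and 34 of 34 in mouse 2 lay below the pooled share of 1-cell clonotypes. The largest ones were no exception: a TRBV31 clonotype of 222 cells had 16.8% and a TRBV29 clonotype of 366 cells had 14.1%.

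**Figure D2:**
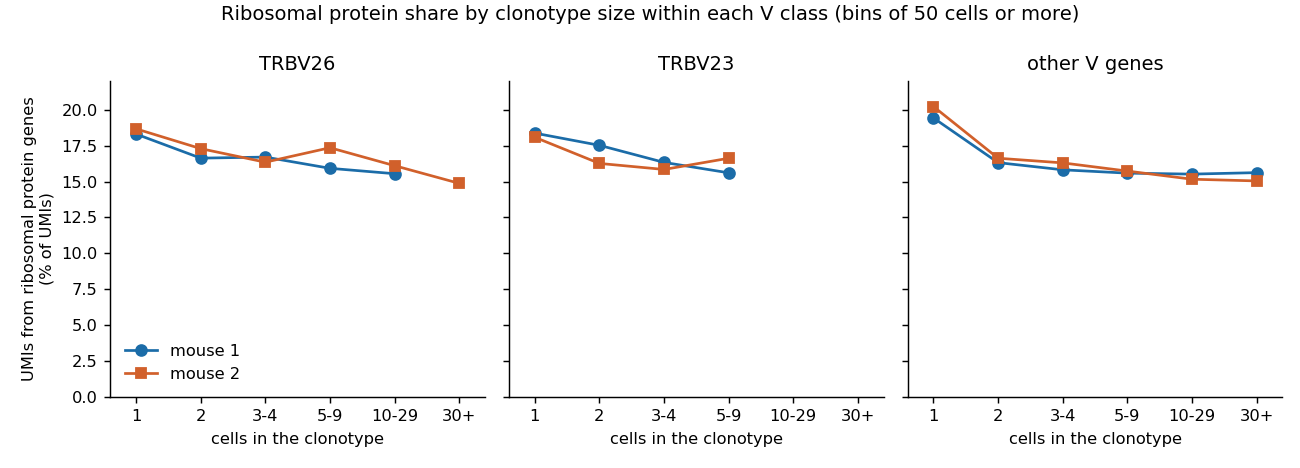
Percent of UMIs from the 96 ribosomal protein symbols (vertical axis, from 0) against the number of cells in the clonotype, for TRBV26, TRBV23 and other V genes, in bins of 50 or more cells; circles are mouse 1 and squares mouse 2. Each panel starts highest at 1 cell, and in cells with other V genes the curve drops to 16.3% and 16.6% at 2 cells and changes little after that.

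Nearly all core genes took part. In clonotypes of 10 or more cells 73 of 77 core genes fell and 0 rose against 1-cell clonotypes, where 14.3% of all 11979 tested genes were called lower, 12.8% higher and 27.2% in either direction, with a core median of -0.37 beside 0.00 over all tested genes. In clonotypes of 2 to 9 cells 68 fell and 0 rose at a background of 3.31% lower, 2.78% higher and 6.09% in either direction, with a core median of -0.35. Without the mouse block 31 fell there. Both subunits were included, with 43 of 46 60S genes and 30 of 31 40S genes lower at 10 or more cells.

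Rps19, a 40S protein whose gene is mutated in human Diamond-Blackfan anaemia, changed most among core genes. It measured 2914 and 3074 CPM in 1-cell clonotypes, 2218 and 2205 CPM at 2 to 9 cells, and 1891 and 1663 CPM at 10 or more cells. Rps20, a 40S protein of the head of the subunit, measured 3972 and 4171 CPM, 2868 and 2881 CPM, and 2640 and 2245 CPM in the same order of sizes. Levels did not overlap between sizes in either gene. Between 10 or more cells and 1 cell the log2 fold changes were -0.75 ± 0.07 for Rps19 (adjusted p = 5.34e-05, edgeR) and -0.73 ± 0.08 for Rps20 (adjusted p = 0.000102). Rpl12, at the base of the stalk, followed with -0.59 ± 0.06, and at 2 to 9 cells Rps20, Rpl36a, Rps19 and Rps18 fell most, by 0.55, 0.50, 0.48 and 0.48 on the log2 scale.

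The 4 core genes not called at 10 or more cells were Rpl27 with a log2 value of -0.01, Rps15a with -0.10, Rpl13a with -0.11 and Rpl41 with -0.18. Rpl27, a 60S protein, measured 1873 and 1982 CPM in 1-cell clonotypes, 1729 and 1810 CPM at 2 to 9 cells, and 1852 and 1942 CPM at 10 or more cells, so its levels in the smallest and largest clonotypes nearly coincided within each mouse. The make-up of the pool thus differed. As a share of core ribosomal protein UMIs, Rpl27 was 1.20% and 1.30% at 10 or more cells, against 0.973% and 0.989% in 1-cell clonotypes, and Rps19 was 1.23% and 1.12%, against 1.51% and 1.53%. Of the 77 core genes, 63 shifted the same way within the pool in both mice. The stalk fell as a whole here, with log2 values of -0.43, -0.36 and -0.33 for Rplp0, Rplp1 and Rplp2, and Rpsa fell by 0.32.

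The paralogs Rpl22l1, Rpl36al, Rpl7l1 and Rps27l were not called at either size. Rpl22l1 had 408 and 446 CPM at 10 or more cells, against 406 and 451 CPM in 1-cell clonotypes, whereas Rpl22 fell by 0.39 ± 0.06. Rps6ka3, the kinase RSK2, fell by 0.78 ± 0.08, to 50.4 and 46.8 CPM in the largest clonotypes, against 87.2 and 81.3 CPM in 1-cell clonotypes. Cell make-up moved with size as well. In 1-cell clonotypes 295 of 782 and 371 of 1028 cells had a Foxp3 UMI, at 2 to 9 cells 295 of 799 and 371 of 979, and at 10 or more cells 69 of 1369 and 63 of 1640. Without cells with a Foxp3 UMI the core medians were -0.42 at 2 to 9 cells and -0.56 at 10 or more cells. Median UMIs per cell were 6510 and 7395.5 in 1-cell clonotypes, 5759 and 6494 at 2 to 9 cells, and 5383 and 5703.5 at 10 or more cells. At matched UMIs per cell the core medians were -0.29 at both sizes, with 70 and 71 core genes lower at 2 to 9 and at 10 or more cells, at backgrounds of 3.38% and 14.3%. The 3 myeloid list genes that could be tested were higher at 10 or more cells, at a summed level of the 5 list genes of 10.7 and 38.3 CPM, against 7.73 and 0.816 CPM in 1-cell clonotypes, and without cells with a UMI of a myeloid or B list gene 73 core genes fell, with a median of -0.39, at a background of 14.4%. Of the 5 T cell list genes 4 rose, to a summed 5129 and 5727 CPM at 10 or more cells, against 3639 and 3573 CPM in 1-cell clonotypes, and their part in the result was not tested.

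Cells seen once were not uniform. Igfbp4, a secreted binding protein whose transcript is typical of naive mouse T cells, was chosen after its values were seen. It measured 355 and 425 CPM in 1-cell clonotypes with other V genes, 11.5 and 15.3 CPM at 2 to 9 cells and 5.69 and 4.34 CPM at 10 or more cells. Ccr7, a homing receptor of naive cells, measured 168 and 202 CPM, 45.7 and 48.0 CPM, and 14.6 and 16.6 CPM. An Igfbp4 UMI was found in 161 of 782 (20.6%) and 240 of 1028 (23.3%) of the 1-cell clonotypes, against 1.25% and 1.41% of cells in larger clonotypes of the same V genes, whose remaining cells had a median of 5489 and 5889 UMIs. Those 161 and 240 cells had 27.8% and 27.9% ribosomal protein UMIs, while the remaining 621 and 788 cells had 16.9% and 17.4%. The cells with an Igfbp4 UMI were also deeper, with a median of 7721 and 9640 UMIs, against 5986 and 6683.5 UMIs, and held fewer Foxp3-positive cells, 4.97% and 6.25% against 46.2% and 45.2%. A single UMI is found more often in deeper cells, and the droplet background of Igfbp4 was not measured here, and a cell without such a UMI may still express the gene. Among 1-cell clonotypes of 5000 to below 10000 UMIs the ribosomal protein share was 30.03% and 28.5% in 111 and 111 cells with an Igfbp4 UMI, against 18.1% and 18.3% in 317 and 419 cells without one. Depth still differed there, with a median of 7656 and 8215 UMIs against 6769 and 6750.

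**Figure D3:**
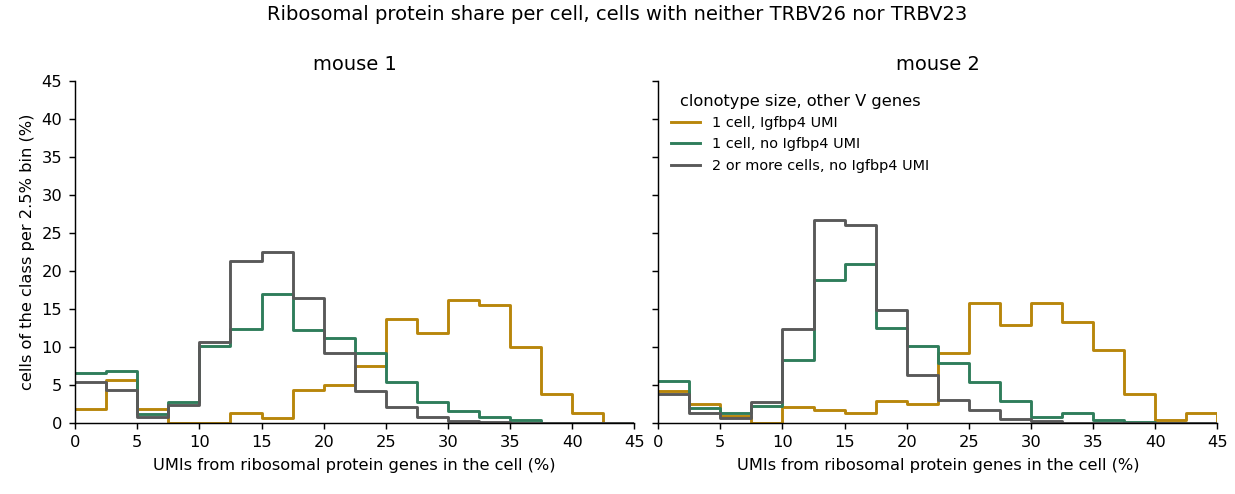
Distribution of the ribosomal protein share per cell (horizontal axis, percent of the cell's UMIs) among cells with other V genes, as percent of the class in bins of 2.5 points (vertical axis). Cells of 1-cell clonotypes with an Igfbp4 UMI lie to the right, with a median of 29.6% and 29.4%, while those without one overlap the cells of larger clonotypes, with medians of 16.5% and 16.3% against 15.6% and 15.2%.

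Differences by clonotype size were smaller without cells that had an Igfbp4 UMI, an alternative added after the data were seen. At 2 to 9 cells no core gene was called lower, against 68 with all cells, and the core median was -0.098, where 0.326% of all tested genes were called lower. DESeq2 was not run on that subset. At 10 or more cells 18 core genes fell, against 73, with a median of -0.12, where 12.4% of all tested genes were called lower. Rps19 and Rps20 remained lower, with log2 values of -0.45 (adjusted p = 0.000585, edgeR) and -0.34 (adjusted p = 0.00466).

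Expansion within each V class. Expanded clonotypes (2 or more cells) had a lower ribosomal protein share than single ones in every V class. The share was 16.31% and 16.72% in expanded TRBV26 cells, against 18.31% and 18.67% in single TRBV26 cells. It was 16.45% and 16.44% in expanded TRBV23 cells, against 18.37% and 18.08% in single ones, and 15.71% and 15.56% in expanded cells with other V genes, against 19.43% and 20.22% in single ones. The differences were -1.97 ± 0.0271, -1.78 ± 0.202 and -4.19 ± 0.670 points (SD, n = 2 mice).

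Within TRBV26 cells 50 of 77 core genes fell with expansion, within TRBV23 cells 24 and within other V genes 75, with 0 core genes higher in each. The backgrounds were 2.99%, 2.74% and 12% called lower, 4.55%, 4.13% and 11.6% called higher, and 7.55%, 6.87% and 23.6% in either direction. Core medians were -0.17, -0.11 and -0.36 on the log2 scale. Without the mouse block 0 core genes were called in TRBV26 and TRBV23 cells, and DESeq2 called 31 and 12 lower, where it called 1.41% and 1.6% of all tested genes lower. In both single V gene classes Rps27 fell most among core genes, by 0.32 ± 0.05 in TRBV26 cells (adjusted p = 0.000404, edgeR) and by 0.27 ± 0.05 in TRBV23 cells (adjusted p = 0.00214), followed by Rps29 and Rps24 in TRBV26 cells. In cells with other V genes it was Rps20 and Rps19, which fell by 0.65 ± 0.05 and 0.63 ± 0.05. Rps27l rose by 0.31 ± 0.07 in expanded TRBV26 cells and Rps6ka1 by 0.25 and 0.34 in expanded TRBV26 and TRBV23 cells. All 22 genes of a proliferation list rose in expanded TRBV26 cells, and without cells in which that list held 0.2% of UMIs or more 36 core genes fell in TRBV26 cells and 8 in expanded TRBV23 cells, at backgrounds of 1.91% and 1.19% called lower.

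Regulatory T cell markers moved with expansion as well. Of the 5 list genes 3 rose in expanded TRBV26 cells and 2 in expanded TRBV23 cells, while 5 fell in expanded cells with other V genes, and for 5 the interaction of TRBV26 against other V genes was positive and called. Of the 22 proliferation genes 20 rose in expanded TRBV23 cells. Cells with a Foxp3 UMI numbered 105 of 945 and 140 of 798 in expanded TRBV26 cells, against 72 of 1139 and 114 of 1162 in single ones. In TRBV23 cells they numbered 57 of 485 and 59 of 330, against 26 of 474 and 28 of 395. With other V genes they numbered 364 of 2168 and 434 of 2619 in expanded cells, against 295 of 782 and 371 of 1028 in single ones. Without cells with a Foxp3 UMI, an alternative added after the data were seen, 23 core genes fell with expansion in TRBV26 cells, 4 in TRBV23 cells and 77 in cells with other V genes, at backgrounds of 1.97%, 1.14% and 15.4% called lower. Core medians were then -0.15, -0.11 and -0.51, and 69 core genes had a positive interaction, where 7.51% of all tested genes did. Rps27 remained lower in expanded TRBV26 and TRBV23 cells, by 0.27 and 0.22 (adjusted p = 0.00334 and 0.0283, edgeR), and Rps6ka1 was no longer called (adjusted p = 0.162 and 0.222).

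The gap between TRBV26 and other V genes in the expanded minus single difference was tested directly. For 36 of 77 core genes it was positive and called, at a background of 5.83%, and for 0 it was negative and called, at a background of 5.06%, with 10.9% called in either direction. Without the mouse block 2 were called. The core median of this interaction was 0.20, which is TRBV26 minus other V genes. Rps19 had an interaction of 0.45 ± 0.07 (adjusted p = 0.000204, edgeR), Rps20 of 0.45 ± 0.06 (adjusted p = 0.000165), Rplp0 of 0.34 ± 0.07 and Rpl10a, a 60S protein of the L1 stalk, of 0.33 ± 0.07. For Rps20, expanded cells had 2987 and 2945 CPM with TRBV26 and 2728 and 2511 CPM with other V genes, whereas single cells had 3378 and 3424 CPM with TRBV26 and 3972 and 4171 CPM with other V genes. Among single cells an Igfbp4 UMI was found in 1.49% and 1.64% with TRBV26 and in 20.6% and 23.3% with other V genes. Without cells with an Igfbp4 UMI 0 core genes had a positive interaction and 1 a negative one. Of all tested genes 4.9% and 3.36% did, and the core median of the interaction was -0.037. The expanded minus single difference then had core medians of -0.15 in TRBV26 cells, -0.10 in TRBV23 cells and -0.11 in cells with other V genes. In these, 37, 20 and 27 core genes fell, at backgrounds of 2.46%, 2.51% and 8.46%.

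The V gene comparison was repeated in subsets of cells, chosen after the data were seen except for the draw of 1 cell per clonotype. When only 1-cell clonotypes were compared, the core median turned to -0.10 for TRBV26 and to -0.13 for TRBV23 against other V genes, with 1 core gene higher in each and 29 and 38 lower, at backgrounds of 12.7% and 9.84% called lower. With 1 cell drawn from each clonotype it was -0.048 and -0.081, with 13 and 20 core genes lower at backgrounds of 13% and 9.67%. Within expanded clonotypes it was 0.086 and 0.11, with 9 core genes higher in TRBV26 cells at a background of 3.74%. Leaving out cells with an Igfbp4 UMI gave 0.14 for both, with 45 and 41 core genes higher and 0 lower, at backgrounds of 8.94% and 6.58% called higher. Within 1-cell clonotypes without such cells 36 and 25 core genes were higher, with medians of 0.12 and 0.095, at backgrounds of 9.38% and 7.82%. The core median was thus positive in some subsets and negative in others, and the cause was not tested. Rps27 was higher in TRBV26 cells under each of these selections, with log2 values between 0.16 and 0.42, and Rps6ka1 was lower under each, by 0.19 to 0.53, though its adjusted p was 0.108 among expanded clonotypes.

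Foxp3 status. Cells with a Foxp3 UMI held less of their mRNA in ribosomal protein transcripts in both mice and in each V class. The share was 15.32% and 15.10% in cells with a Foxp3 UMI, against 17.44% and 17.92% in cells without one, a difference of -2.47 ± 0.496 points (SD, n = 2 mice). By V class it was -2.85 ± 1.04 points in TRBV26 cells, -2.62 ± 0.718 points in TRBV23 cells and -2.21 ± 0.278 points in the others. Median UMIs per cell were 6338 and 6597.5 with a Foxp3 UMI, against 5522 and 6166 without one. The 5 regulatory T cell markers summed to 3199 and 3393 CPM in cells with a Foxp3 UMI, against 505 and 467 CPM in cells without one. Foxp3 is among the 5 and defines the classes, so its part of these sums was fixed in advance. With Foxp3 left out of the calls, the other 4 were called higher, at a background of 20.2% called higher. Of 22 proliferation list genes 21 rose, and without cells in which that list held 0.2% of UMIs or more 70 core genes fell and 2 rose, at backgrounds of 19.5% and 19.7%. The 4 B list genes summed to 10.8 and 19.0 CPM with a Foxp3 UMI, with 2 of them at 0, against 1.14 and 1.91 CPM without one, and their part in the result was not tested. Median UMIs and the droplet background of Foxp3 bear on who counts as positive, and that background was not measured here.

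Averaged over the V classes, 69 of 77 core genes fell and 1 rose with Foxp3, at a background of 21.4% called lower, 20.2% higher and 41.5% in either direction among 11718 genes. The core median was -0.24, beside -0.04 over all tested genes. The largest decreases were again in small proteins of the 40S subunit. Rps29 measured 588 and 782 CPM in cells with a Foxp3 UMI, against 809 and 1140 CPM in cells without one. Rps27 measured 1101 and 1478 CPM, against 1526 and 2091 CPM. Both genes were thus lower with a Foxp3 UMI in each mouse, where each class is 1 summed value. Log2 fold changes were -0.57 ± 0.04 for Rps29 (adjusted p = 6.74e-10, edgeR), -0.56 ± 0.03 for Rps27 (adjusted p = 1.36e-10), -0.58 ± 0.08 for Rps27rt and -0.50 ± 0.03 for Rpl21.

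Rpl39, a small 60S protein at the exit tunnel, was the core gene that rose. It measured 1468 and 1793 CPM in cells with a Foxp3 UMI, against 1304 and 1636 CPM in cells without one, with a log2 fold change of 0.13 ± 0.04 (adjusted p = 0.00526, edgeR) and an increase in each V class of both mice. Without the mouse block its adjusted p was 0.308. Among the 7 core genes not called were Rps19 with a log2 value of -0.07, Rps2 and Rps12 each with -0.03, Rpsa with -0.02, Rpl41 with 0.04 and Rpl7a with 0.07. Rps19 and Rpsa, which fell with clonotype size, thus hardly differed with Foxp3, and within the pool of core UMIs Rps19 was 1.49% and 1.46% in cells with a Foxp3 UMI, against 1.33% and 1.32% without one. Within that pool 70 of 77 core genes shifted the same way in both mice.

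**Figure D4:**
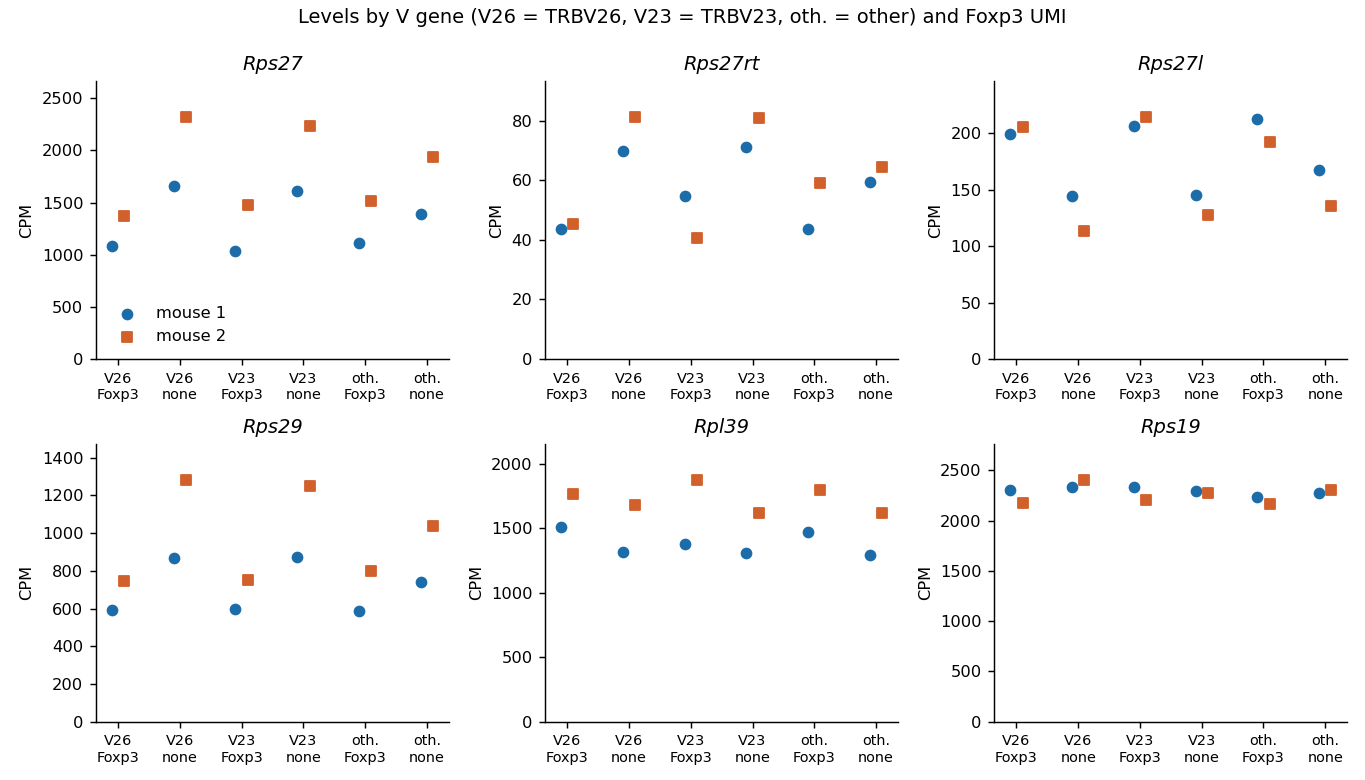
Levels in CPM (vertical axes, from 0) of 6 members by V gene and Foxp3 UMI; circles are mouse 1 and squares mouse 2. Rps27 and Rps29 are lower and Rps27l and Rpl39 higher in cells with a Foxp3 UMI within each mouse and V class, and mouse 2 lies above mouse 1 for Rps27, Rps29 and Rpl39.

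Rps27 and its copy Rps27l moved in opposite directions. Rps27l measured 209 and 197 CPM in cells with a Foxp3 UMI, against 156 and 128 CPM in cells without one, and rose by 0.55 ± 0.06 (adjusted p = 2.93e-07, edgeR). The other paralogs Rpl22l1 and Rpl36al fell by 0.38 and 0.29, and Rpl7l1 was not called. Rps6ka1 rose by 0.90 ± 0.05, with 218 and 236 CPM against 119 and 129 CPM. Rps6kb1 fell by 0.26 (adjusted p = 0.0277, edgeR), with 44.2 and 39.5 CPM against 50.5 and 50.2 CPM. Rps6kc1 was called lower in the average over V classes (adjusted p = 0.0333), but its pooled levels were 5.04 and 8.09 CPM with a Foxp3 UMI, against 8.55 and 7.80 CPM without one, lower in mouse 1 and slightly higher in mouse 2. Rps6ka2 was called higher (adjusted p = 0.0172) on 45 and 63 UMIs in all kept cells, which is 2.24 and 3.06 CPM with a Foxp3 UMI and 0.918 and 0.982 CPM without one.

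The Foxp3 difference itself was compared between TRBV26 and other V genes. A single core gene, Rps27, differed by the test of the interaction, at -0.33 ± 0.08 (adjusted p = 0.0297, edgeR). Of all tested genes 3.89% were called, 1.95% higher and 1.94% lower. A count of 1 among 77 core genes is under those shares, so the core genes did not stand out here. In TRBV26 cells Rps27 had 1083 and 1372 CPM with a Foxp3 UMI, against 1656 and 2318 CPM without one. In cells with other V genes it had 1116 and 1517 CPM, against 1395 and 1934 CPM. Without the mouse block the adjusted p was 0.797. The core median of the interaction was -0.03.

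**Figure D5:**
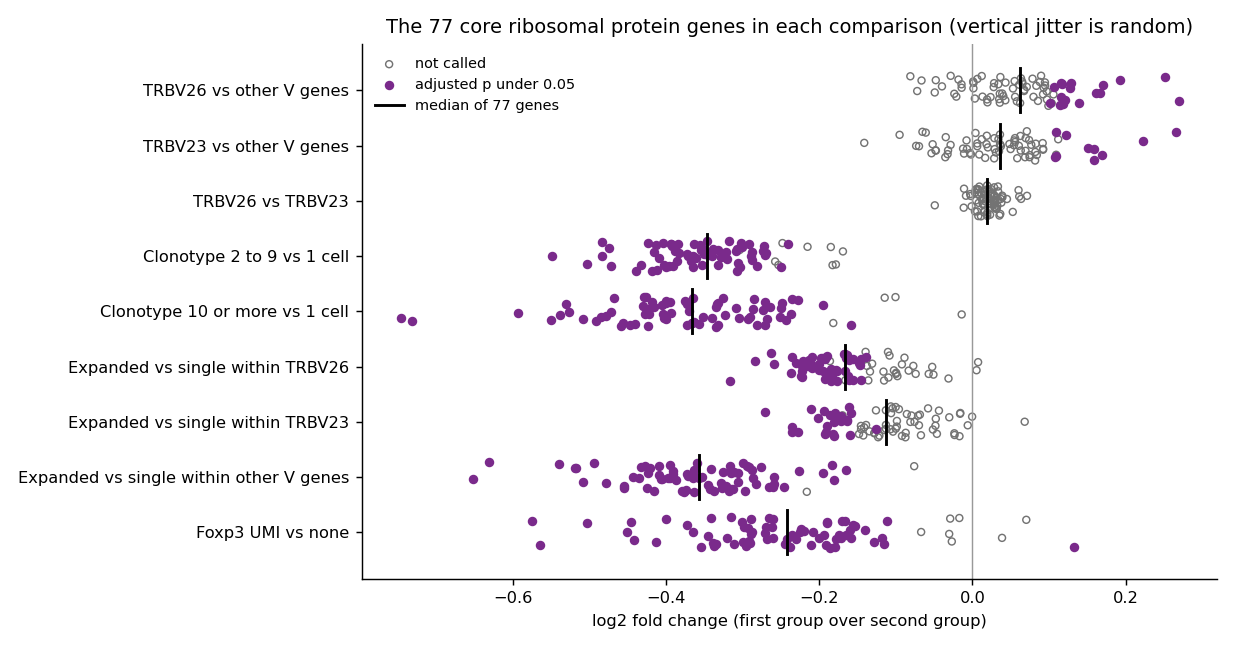
Log2 fold changes (horizontal axis, first group over second group) of the 77 core genes in 9 comparisons; filled points are called at an adjusted p under 0.05, open points are not, and black lines are medians. Medians run from 0.06 for TRBV26 against other V genes to -0.37 for clonotypes of 10 or more cells against 1 cell.

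The subunits moved together. The ratio of 60S UMIs, stalk included, to 40S UMIs lay between 1.20 and 1.25 in all classes. It was 1.23 and 1.25 in clonotypes of 10 or more cells, against 1.20 and 1.21 in 1-cell clonotypes, and 1.20 and 1.22 in cells with a Foxp3 UMI, against 1.21 and 1.22 in cells without one. Fau, a ribosomal protein gene outside the pattern, had 3990 and 4267 CPM with a Foxp3 UMI, against 4696 and 4856 CPM without one, and fell by 0.26 ± 0.03. In clonotypes of 10 or more cells Fau had a log2 value of -0.12 (adjusted p = 0.095, edgeR).

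Other genes of translation were read against the shares of all tested genes given above. The 78 genes of the mitochondrial ribosome, a separate machine that translates mitochondrial mRNAs, had medians of -0.03 in TRBV26 cells against other V genes (4 higher, 6 lower), -0.01 in clonotypes of 10 or more cells (3 higher, 8 lower) and 0.00 with Foxp3 (13 higher, 9 lower). In each comparison those counts lay at or under the share of all tested genes called in that direction. Of 44 ribosome biogenesis genes, 14 fell and 1 rose in clonotypes of 10 or more cells, where 14.3% of all tested genes fell, with Npm1, a nucleolar chaperone, at -0.51 ± 0.07. With Foxp3, where Nop10 fell by 0.74 and Ddx21 rose by 0.44, 5 of the 44 rose and 9 fell, and in TRBV26 cells 1 rose and 3 fell, shares at or under those of all tested genes. Of 9 elongation factor genes, 4 fell in clonotypes of 10 or more cells, among them Eef1b2, an exchange factor for the tRNA carrier Eef1a1, by 0.51 ± 0.06 and Eef1a1 itself by 0.26 ± 0.05. Wdr12, needed to process the 60S precursor, fell by 1.36 ± 0.13 there. Myc, a transcription factor that drives ribosome synthesis, fell by 1.52 ± 0.28 in those clonotypes (adjusted p = 0.00319, edgeR). It rose by 1.08 ± 0.15 in cells with a Foxp3 UMI, while most core ribosomal protein genes fell in both comparisons. Myc was taken from a list of 21 growth regulators, 20 of them tested. Of these, 0 rose and 8 fell in the large clonotypes, and 9 rose and 9 fell with Foxp3. Backgrounds were 12.8% higher and 14.3% lower, and 20.2% and 21.4%. Cells with a Foxp3 UMI were fewer in the large clonotypes, and their part in the Myc value was not tested.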

How the data were processed

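Per the submitters' processing notes, the libraries were processed with Cell Ranger 7.0.1, and the builds mm10 and GRCm38 are named. The authors deposited counts, as UMIs per gene and barcode and as read and UMI counts per receptor contig. Kept cells had at least 500 genes, at most 10% mitochondrial UMIs and 1 TRB contig. In all, 708 and 702 cells with 2 TRB contigs were left out, and no doublet caller was run. A clonotype was 1 TRBV, TRBJ and CDR3 nucleotide sequence within a mouse.

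Counts were summed per mouse and class and tested with edgeR 4.0.16 (TMM, filterByExpr, quasi-likelihood F test, Benjamini-Hochberg threshold 0.05). Receptor segments were left out, and Foxp3 from its own comparison. The mouse is a block because both classes are cells of the same animal. Residual degrees of freedom were 2 or 5, beside 7.25 to 13.1 prior ones from all genes. With the mouse as a block, p-values measure only how far class differences disagreed between these 2 mice. Alternatives included DESeq2 1.42.0. The test was also run on simulated counts, which had no difference between mice and a single spread for all genes, unlike these data. That run cannot speak for calls that depend on the block.

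Members and lists were chosen with earlier results of these data known. Named genes are, per comparison, the 4 largest called increases and decreases (mice agreeing in sign, 20 CPM or more in a class), the stalk, Rpsa, paralogs, non-ribosomal symbols, the extremes of level and the 2 genes of smallest p in each list. Rps24, Rps28, Rpl37a and Rpl21 beyond that rule, the uncalled core genes, Fau, Myc, Igfbp4, Ccr7, Dapl1 and Lef1 were chosen after their values were seen. A few genes are not reported here.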

Additional observations from a re-analysis of the deposited data

Results flagged for a closer look

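The expanded minus single difference was unlike in TRBV26 cells and in cells with other V genes for 36 core genes by the direct test. Among them were Rps19 (0.45 on the log2 scale), Rps20 (0.45), Rplp0 (0.34) and Rpl10a (0.33). Without cells with an Igfbp4 UMI 0 core genes had a positive call, and without cells with a Foxp3 UMI 69 had one. The Foxp3 difference differed between TRBV26 and other V genes for 1 core gene, Rps27, by -0.33. Of all tested genes 3.89% were called there, a larger share than 1 of 77 core genes.

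The 5 symbols containing -ps, annotated as pseudogenes and left out of the members, held 959 UMIs in kept cells of mouse 1 and 1146 in mouse 2. Of these, 810 and 976 were counted for Rpl9-ps6.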

How the results depend on the processing

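Without the replicate block, that is without pairing by mouse, 0 core genes rose in TRBV26 and in TRBV23 cells, 0 fell with expansion in either, 31 fell at 2 to 9 cells, 2 had a positive expansion interaction, and 0 rose with Foxp3 or had a Foxp3 interaction. DESeq2 called 6 and 3 core genes higher in TRBV26 and TRBV23 cells and 31 and 12 lower with expansion in them (TRBV23 median -0.10, also with its size factors). Library totals gave 44 genes lower and a median of -0.14 in expanded TRBV23 cells and -0.30 at 2 to 9 cells. Without a low-count filter 2 core genes were lower in TRBV23 cells and the TRBV26 median was 0.049, and against all cells without TRBV26 it was 0.054. With 1 cell per clonotype, 3 and 2 core genes were higher and 13 and 20 lower in TRBV26 and TRBV23 cells (medians -0.048 and -0.081). Backgrounds there were 11% and 8.73% higher and 13% and 9.67% lower. Without Foxp3-positive cells 7 and 5 core genes were higher and 2 and 2 lower in TRBV26 and TRBV23 cells (TRBV26 median 0.039). Of all tested genes 10.2% and 7.24% were higher and 12.1% and 7.85% lower there, shares above those of the core genes. The size medians without those cells were -0.42 and -0.56. Asking for 2 Foxp3 UMIs gave 2 core genes higher, at a background of 20.8% called higher. Without mt- genes in the denominator the expanded TRBV26 share differed by -2.06 points. The cause of these changes was not tested.

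The following were chosen after seeing the data. Among 1-cell clonotypes 1 and 1 core genes were higher and 29 and 38 lower (medians -0.10 and -0.13). Among expanded ones 9 TRBV26 genes were higher (medians 0.086 and 0.11). At matched depth the median at 2 to 9 cells was -0.29. Without proliferating cells 8 core genes fell in expanded TRBV23 cells, the expansion medians were -0.13 (TRBV26), -0.092 (TRBV23) and -0.43 (other V genes), 68 interactions were positive (median 0.29) and 2 core genes rose with Foxp3. Without cells with an Igfbp4 UMI 18 fell at 10 or more cells (median -0.12), 0 at 2 to 9 (-0.098), 27 with expansion in other V genes (-0.11), 0 interactions were positive and 1 negative (-0.037), and 45 and 41 rose in TRBV26 and TRBV23 cells (0.14 and 0.14). Expansion medians there were -0.15 and -0.10 in TRBV26 and TRBV23 cells. Without Foxp3-positive cells 23 and 4 core genes fell with expansion in TRBV26 and TRBV23 cells (TRBV26 median -0.15), the median in other V genes was -0.51 and 69 interactions were positive (0.36). Within 1-cell clonotypes without an Igfbp4 UMI, 36 and 25 were higher (0.12 and 0.095).

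Each mouse alone gave core medians of -0.13 to -0.12 for expansion in TRBV23 cells, of -0.063 to 0.0053 for the Foxp3 interaction and of -0.0076 to 0.046 for TRBV26 against TRBV23. The 48 named values counted here were called members with the largest changes and mice agreeing in sign, which partly fixes their direction in advance. Of their 518 alternative values 453 kept direction and side of the threshold. A further 65 were no longer called, 28 of them without the block, and none turned. Uncalled members are not among the 48, and the core medians of the V gene comparisons did turn in some subsets. Counting error limits the rare members most.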

Other observations

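The share of ribosomal protein UMIs also varied among V gene calls. Over the 12 calls that reached 100 cells in both mice it ran between 16.02 ± 0.424% for TRBV14 and 18.3 ± 1.78% for TRBV13-1 (SD, n = 2 mice). The joint call TRBV12-2+TRBV13-2 is among the 12. TRBV14 had 9.78 and 5.96 cells per clonotype, TRBV13-1 1.52 and 3.06, and TRBV26 1.44 and 1.37. The part of clonotype size in this order was not tested. TRBV26 stood at 17.6 ± 0.365%, the 8th lowest, and most neighbours in this order differed by less than their SD.

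A part of the cells held few ribosomal protein transcripts. Below 5% of UMIs lay 461 of 5993 cells (7.69%) in mouse 1 and 303 of 6332 (4.79%) in mouse 2. They were shallower, with a median of 3476 and 3937 UMIs, against 5743.5 and 6330 UMIs in the remaining cells, and richer in mitochondrial UMIs, with medians of 3.07% and 3.64% against 1.58% and 1.62%. They made up 5.81% and 3.62% of TRBV26 cells and 3.65% and 3.17% of TRBV23 cells, against 10.3% and 5.73% of cells with other V genes.

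Among 6465 genes over 20 CPM, those whose log2 CPM followed the median core gene most closely over 12 sums of mouse, V class and Foxp3 status were mt-Co2 (Pearson r = 0.985), mt-Cytb (0.978), mt-Nd4 (0.978), Gm10260 (0.978) and mt-Co3 (0.975). The sums share libraries and their depth, so these are descriptions.

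Other genes typical of naive T cells, chosen after their values were seen, followed clonotype size like Igfbp4. Dapl1 measured 43.9 and 58.3 CPM in 1-cell clonotypes with other V genes, 5.85 and 5.50 CPM at 2 to 9 cells and 0.342 and 1.35 CPM at 10 or more cells. Lef1, a transcription factor, measured 302 and 325 CPM, 174 and 151 CPM, and 141 and 123 CPM.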
